A study of Mus musculus with 6 samples.

Results

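The genes described here are 8 transcripts that mark the 2-cell stage of the mouse embryo, read in RNA from oocytes: D5Ertd577e, Zscan4c, Zscan4d, Zscan4f, Zfp352, Arg2, Tcstv1 and Tcstv3. They were chosen by symbol as known 2-cell genes, with earlier results of these data known, and all 8 are among the 23284 gene symbols counted. Counts came from fully grown oocytes at the germinal vesicle stage, arrested before meiosis resumes, from 3 samples of Lsd1 KO and 3 of Control mice on a mixed C57BL/6-129 background. Every sample held 100 oocytes from females 4 to 6 weeks old, collected 48 hours after priming with 5 IU pregnant mare's serum gonadotrophin, and was lysed directly. The sources used here do not give the Cre line, the exons removed or the number of females behind a sample. The gene symbol of Lsd1 is Kdm1a, and it encodes a histone lysine demethylase of the CoREST corepressor complex. The series asks how its loss changes gene expression in oocytes.

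When the embryonic genome is first transcribed, the mouse 2-cell embryo turns on a short-lived set of genes, many of them in tandem copies and many linked to the endogenous retrovirus MERVL. A small share of mouse embryonic stem cells passes through a similar state, and in those cells loss of LSD1 is known to raise MERVL and genes of this set. Fully grown oocytes are transcriptionally quiet, so that a transcript measured in them was in most cases made while the oocyte grew.

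Most of these genes belong to families of near-identical copies, which bears on every count below. Zscan4c, Zscan4d and Zscan4f encode SCAN-domain zinc-finger proteins known for telomere maintenance in embryonic stem cells. In GENCODE M1 on NCBIM37, the assembly of mm9, they lie on chromosome 7 at 11591071 to 11595896, 11746992 to 11751497 and 11983264 to 11988090. Over 1521 coding bases Zscan4c and Zscan4f differed at 6 positions (99.6% identity), and Zscan4d differed from either one at 35 (97.7%). The promoters printed next, from RefSeq on GRCm38.p6, show how alike the copies are and how D5Ertd577e, the most strongly reduced of the 8 genes, differs from them. Each runs 5′ to 3′ from 250 bases before to 50 after the annotated start, and capitals mark the letters TATAAA and CCAAT. Zscan4c lies at chr7:11005495-11005794 (plus strand), Zscan4d at chr7:11166099-11166398 (minus strand), Zscan4f at chr7:11397665-11397964 (plus strand) and D5Ertd577e, listed there as Pramel48, at chr5:95456556-95456855 (plus strand).
Zscan4c: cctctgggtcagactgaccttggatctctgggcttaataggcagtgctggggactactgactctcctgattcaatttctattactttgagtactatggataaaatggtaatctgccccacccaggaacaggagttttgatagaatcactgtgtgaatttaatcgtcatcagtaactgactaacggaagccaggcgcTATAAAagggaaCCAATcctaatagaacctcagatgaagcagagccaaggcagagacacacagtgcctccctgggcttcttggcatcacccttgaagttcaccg
Zscan4d: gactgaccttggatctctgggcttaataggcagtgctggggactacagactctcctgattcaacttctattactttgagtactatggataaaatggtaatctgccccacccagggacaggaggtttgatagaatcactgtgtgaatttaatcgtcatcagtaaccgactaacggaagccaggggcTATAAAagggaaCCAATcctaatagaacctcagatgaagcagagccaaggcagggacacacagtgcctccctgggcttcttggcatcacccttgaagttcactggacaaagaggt
Zscan4f: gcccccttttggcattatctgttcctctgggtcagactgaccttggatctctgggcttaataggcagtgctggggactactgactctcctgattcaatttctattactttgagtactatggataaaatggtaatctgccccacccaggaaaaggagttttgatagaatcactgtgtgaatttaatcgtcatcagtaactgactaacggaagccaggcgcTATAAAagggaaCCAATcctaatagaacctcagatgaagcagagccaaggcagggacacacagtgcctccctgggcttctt
D5Ertd577e: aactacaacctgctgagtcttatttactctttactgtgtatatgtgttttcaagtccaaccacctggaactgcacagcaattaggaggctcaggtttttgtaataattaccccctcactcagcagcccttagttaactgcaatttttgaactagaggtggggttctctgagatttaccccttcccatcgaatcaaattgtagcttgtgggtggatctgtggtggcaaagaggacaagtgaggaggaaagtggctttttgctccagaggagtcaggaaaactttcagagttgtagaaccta

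Where they align, the promoter windows of Zscan4c and Zscan4f differed at 2 of 277 bases, and those of Zscan4c and Zscan4d at 8 of 289. All 3 hold TATAAA, which begins 54, 65 and 31 bases before the annotated start of Zscan4c, Zscan4d and Zscan4f, with CCAAT just after it. The letters of these motifs were searched on both strands. TATAAA occurs in 13.6% and CCAAT in 37.4% of the 32851 promoters in the table, and neither occurs in the windows of D5Ertd577e or Zfp352. GGGCGG, in 35.7% of all promoters, is in none of the 5 windows matched. Arg2, Tcstv1 and Tcstv3 had no entry.

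To show how far reads could be assigned, each 32-base window of the annotated exons was searched in the whole mm9 genome on both strands. Every one of the 1180 windows of Arg2 occurs once, as do 75.0% of those of Zfp352. The share is 35.4% for Zscan4d, 15.4% for D5Ertd577e, 9.28% for Zscan4c and 1.41% for Zscan4f. The sources used here do not give the read length or how the authors treated reads that match several places, so the split of counts among Zscan4 copies is uncertain. Tcstv1 and Tcstv3 had no entry by these names in the mm9 annotation, and for them no window or length was computed.

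Libraries held 10735422 to 13035045 counts, and the chi-square per degree of freedom between replicates was 19.8 to 43.6, far above counting noise. Kdm1a had 47, 31 and 36 counts in the Lsd1 KO libraries, against 799, 962 and 492 in the Control libraries, as the labels have it (log2 -4.28 ± 0.27). On the first principal component (53.9% of the variance) the genotypes were apart. Control replicate 3 stood apart on the second (15.2%) and Lsd1 KO replicate 2 on the third (14.8%). The 18 oocyte markers summed to 40049 to 44581 CPM in Lsd1 KO oocytes against 29583 to 34991 CPM in Control. Gdf9 carried this gap, at 15558 ± 1264 CPM in Lsd1 KO oocytes against 6057 ± 830 CPM in Control, and without it the sums overlapped (25568 to 28707 CPM in Lsd1 KO, 22568 to 29422 CPM in Control). The 22 granulosa and cumulus markers summed to 396 to 480 CPM in Lsd1 KO oocytes against 136 to 160 CPM in Control. Here Cyp19a1 carried the gap, at 324 ± 82.8 CPM in Lsd1 KO oocytes against 36.8 ± 11.0 CPM in Control, and without it the sums overlapped (75.5 to 157 CPM in Lsd1 KO, 104 to 110.4 CPM in Control). In the same lists Oosp1 and Inha were called higher (log2 0.82 and 1.36), and Mos and Nr5a2 lower (log2 -1.08 and -1.28). Inha kept the call in 2 of the 6 fits that leave out a library. Of 16 granulosa and cumulus markers tested, 2 were called higher and 1 lower, beside 11.0% and 10.3% of all genes tested. Their median log2 fold change was 1.25, beside -0.01 over all genes tested. The 14 theca, stroma and endothelial markers summed to 118 to 131 CPM in Lsd1 KO oocytes against 71.1 to 91.0 CPM in Control. Without Tek these sums stayed apart (67.4 to 87.9 CPM in Lsd1 KO, 49.6 to 62.2 CPM in Control). Of 5 tested, 2 were called higher, Dcn and Tek, and 0 lower. Dcn kept the call in all 6 fits that leave out a library (log2 3.90 to 4.53), and Tek in 2. The 22 immune and blood markers summed to 28.0 to 278 CPM in Lsd1 KO oocytes against 12.8 to 82.6 CPM in Control. Of 13 tested, 2 were called higher, Cd68 and H2-Aa, and 0 lower, with a median log2 fold change of 1.71. Cd68 kept the call in 2 of the 6 fits that leave out a library, and H2-Aa in 3. The 4 haemoglobin genes and Cd79a were listed at 0 in all libraries, but so were Oaz1, Amd1 and Amd2, of which Oaz1 and Amd1 are used by nearly every cell, so that a 0 in these counts does not show that a transcript was missing. The part of these markers in the results below was not tested beyond a fit with the immune marker level as a covariate. Levels are in CPM, the usual depth-scaled count, with library sizes scaled by TMM, as mean ± SD with n = 3 per genotype. In such pooled oocyte RNA, fewer oocytes that hold a transcript and less transcript per oocyte cannot be told apart.

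Loss of Lsd1 went with lower levels of D5Ertd577e, Zscan4c and Arg2, and none of the 7 genes tested was called higher. Zscan4c kept its call in 1 of the 6 fits that leave out a library. The 8th gene, Zfp352, was not tested in the main fit, and without a filter on low counts it was called higher. The fit covered 12935 genes and used edgeR's quasi-likelihood test with Benjamini-Hochberg adjustment, with a gene called at an adjusted p under 0.05. Of all genes tested 21.3% were called, 10.3% as lower and 11.0% as higher. Among the 7 of these 8 genes that passed the filter on low counts, 3 were called lower and 0 higher. At an unadjusted p under 0.05 edgeR and DESeq2 each gave 4 lower and 0 higher, and limma-voom gave 4 lower and 2 higher. The share of all genes at that cutoff is not given here. After adjustment DESeq2 and limma-voom each called 4 lower and 0 higher. Over all genes DESeq2 then called 1572 lower and 1608 higher, and limma-voom 1298 lower and 1398 higher. In 5 of the 7 the Lsd1 KO libraries all lay below the Control libraries, where 19.1% of all genes tested did so. The median log2 fold change of the 7 was -0.92, beside -0.01 over all genes tested. Zscan4c, Zscan4d and Zscan4f are among the 5, may share reads and are not separate measurements, which limits this count and this median. For Zscan4f the groups were apart only by 1.347 CPM in the highest Lsd1 KO library against 1.355 CPM in the lowest Control library.

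**Figure D1:**
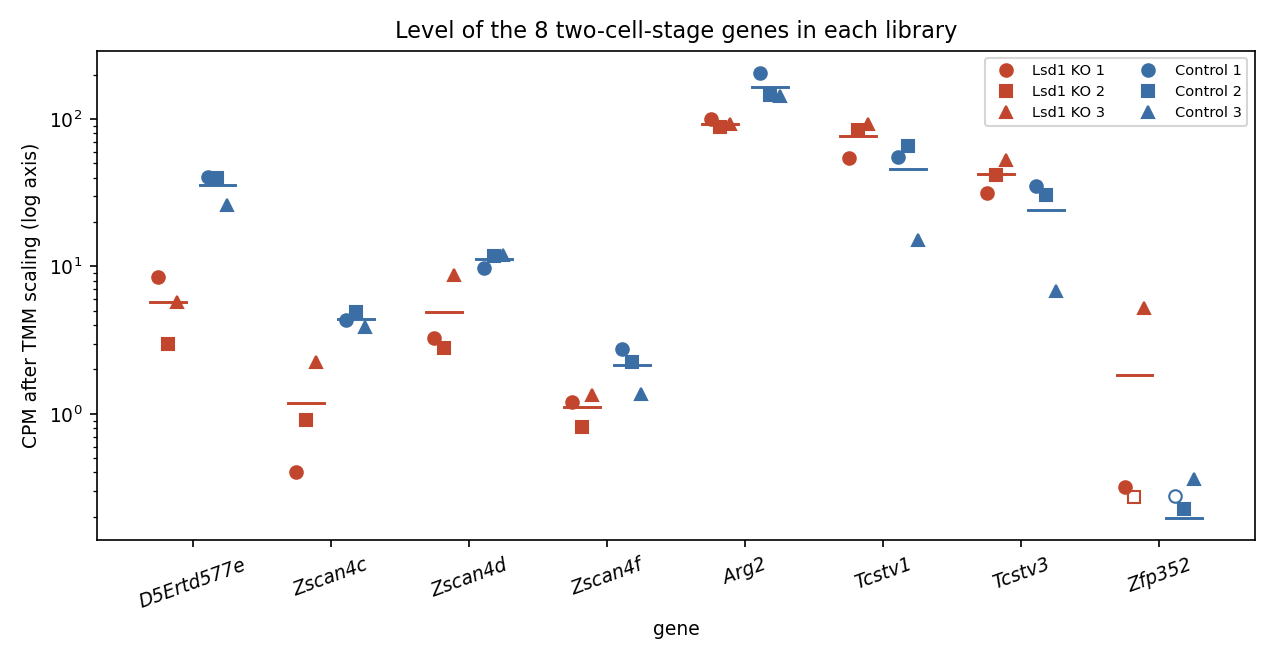
CPM after TMM scaling on a log axis for each of the 8 genes, with the 3 Lsd1 KO libraries (red) left of the 3 Control libraries (blue); bars are group means and open symbols are libraries with 0 counts, drawn at the level of 3 counts. D5Ertd577e, the Zscan4 copies and Arg2 lie lower in Lsd1 KO, the Tcstv genes overlap, and Zfp352 is high in 1 library.

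D5Ertd577e encodes a protein of the PRAME-like family, leucine-rich repeat proteins found in many copies in the mouse and known mainly from germ cells and early embryos. It lies on mm9 chromosome 5 from 95885825 to 95914583 on the plus strand and is protein-coding. It had 106, 33 and 64 counts in Lsd1 KO replicates 1 to 3 and 441, 529 and 291 counts in Control replicates 1 to 3. The highest Lsd1 KO library thus held less than any Control library, and replicate 2 was the lowest of all. Its level was 5.74 ± 2.76 CPM in Lsd1 KO oocytes against 35.6 ± 8.11 CPM in Control, which is 6.21-fold lower. The log2 fold change was -2.63 ± 0.35 (SE, edgeR adjusted p = 0.000444). It stayed called in each of the 17 other settings tried, with values of -3.01 to -2.34.

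D5Ertd577e lies in a region rich in PRAME-like gene copies, and its annotated neighbours were examined after their values had been seen. Of 17 counted symbols within 2 Mb, 11 were tested, 4 were lower and 1, Fras1, was higher, beside 10.3% called lower and 11.0% higher of all genes tested. Of the fits that leave out a library, Fras1 passed without Control replicate 2 and missed the threshold without each of the others (adjusted p up to 0.141). The 4 lower were D5Ertd577e and the 3 tested genes on its proximal side. C87414, listed by RefSeq as Pramel34, had 3251, 2341 and 2108 counts in Lsd1 KO and 9312, 9286 and 9195 counts in Control. It was the most abundant of these genes, at 220 ± 36.6 CPM in Lsd1 KO against 797 ± 85.9 CPM in Control, and its log2 fold change was -1.85 ± 0.19 (edgeR adjusted p = 7.37e-05).

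AA792892, which is also in the wider list of 2-cell genes, had 998, 240 and 442 counts in Lsd1 KO and 1768, 3104 and 2362 counts in Control. Its log2 fold change was -2.11 ± 0.36 (edgeR adjusted p = 0.00217). Gm6367 had 245, 25 and 99 counts in Lsd1 KO, against 1143, 1723 and 798 counts in Control, and its log2 value was -3.31 ± 0.52 (edgeR adjusted p = 0.00135). In AA792892 and Gm6367, as in D5Ertd577e, Lsd1 KO replicate 2 was lowest and replicate 1 the highest of the Lsd1 KO libraries. In none of the 4, which include D5Ertd577e itself, did the groups overlap. Of all genes tested 19.1% lay wholly lower in Lsd1 KO. Coding sequences of C87414, AA792892 and Gm6367 matched at 96.1% to 98.9% of aligned bases, and each matched D5Ertd577e at 82.2% to 86.4%. Counts of these genes may share reads and are not 4 separate measurements. BC061212, on the proximal side of D5Ertd577e, and E330014E10Rik, on its distal side, had 0 counts in all 6 libraries. Gm3286, also distal, had at most 3 counts in a library. Beyond Gm3286 and E330014E10Rik, the genes Cxcl13, Cnot6l, Mrpl1, Bmp2k, Paqr3 and Naa11 were not called.

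**Figure D2:**
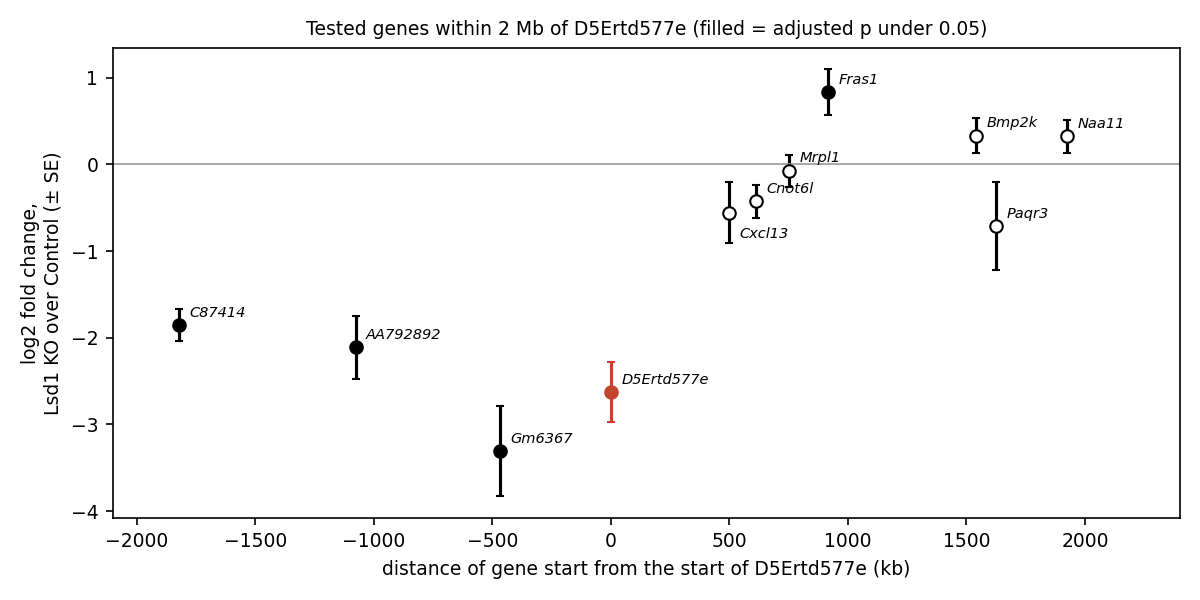
Log2 fold change (Lsd1 KO over Control, ± SE) of the 11 tested genes within 2 Mb of D5Ertd577e, against the distance in kb of each gene's start from the start of D5Ertd577e (red); filled points had an adjusted p under 0.05. C87414, AA792892, Gm6367 and D5Ertd577e lie between -3.31 and -1.85, and Fras1 at 0.83.

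Of the 3 Zscan4 copies Zscan4c was called lower and the others were not, all at low counts. Zscan4c, known as the main copy of embryonic stem cells, had 5, 10 and 25 counts in Lsd1 KO and 47, 65 and 43 counts in Control. Its groups did not overlap, and replicate 3 was the highest of the Lsd1 KO libraries. The level was 1.18 ± 0.953 CPM in Lsd1 KO oocytes against 4.38 ± 0.507 CPM in Control. The log2 fold change was -1.89 ± 0.59 and passed the threshold (edgeR adjusted p = 0.0384). The call was lost with any library other than Lsd1 KO replicate 3 left out, while the log2 value stayed at -1.98 to -1.45. Without Lsd1 KO replicates 1 and 2 in turn the adjusted p was 0.126 and 0.0825, and without Control replicates 1, 2 and 3 in turn 0.0925, 0.118 and 0.0538. Leaving out Lsd1 KO replicate 3 gave -2.71 (adjusted p = 0.0158), and with the immune marker covariate it was -1.88 (adjusted p = 0.0702).

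Zscan4d, known as the main copy of the 2-cell embryo, was the most abundant of the copies here. It had 41, 31 and 97 counts in Lsd1 KO and 105, 157 and 133 counts in Control. Lsd1 KO replicate 3 was again the highest of its group and lay close to the lowest Control library. The level was 4.93 ± 3.28 CPM in Lsd1 KO oocytes against 11.2 ± 1.28 CPM in Control. With a log2 fold change of -1.18 ± 0.42 it missed the threshold (edgeR adjusted p = 0.0617), and without Lsd1 KO replicate 3 it passed at -1.84 (adjusted p = 0.0092). DESeq2 (0.0277) and limma-voom (0.0266) also called it on all 6 libraries.

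Zscan4f had 15, 9 and 15 counts in Lsd1 KO and 30, 30 and 15 counts in Control. Its level was 1.12 ± 0.277 CPM in Lsd1 KO oocytes against 2.13 ± 0.719 CPM in Control, with the highest Lsd1 KO library at 1.347 CPM and the lowest Control library at 1.355 CPM. It was not called (log2 -0.92 ± 0.57, edgeR adjusted p = 0.272). The remaining copies in the files were Zscan4a, with 13, 9 and 36 counts in Lsd1 KO and 46, 40 and 38 counts in Control (log2 -1.07 ± 0.57, edgeR adjusted p = 0.205), Zscan4b with at most 2 counts, and Zscan4e with none.

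Summed over the 6 Zscan4 symbols, which does not depend on how reads were split among them but may lack reads dropped because they match several copies, the libraries held 74, 61 and 174 counts in Lsd1 KO and 228, 292 and 230 counts in Control. That sum was 9.02 ± 5.72 CPM in Lsd1 KO oocytes against 21.3 ± 0.634 CPM in Control, a ratio of means of 0.424, given without a test. The 3 Control libraries were within a narrow range, and Lsd1 KO replicate 3 was well above the other Lsd1 KO libraries. Zscan4d took 50.8% to 55.7% of it in Lsd1 KO, against 46.1% to 57.8% in Control. Zscan4c took 6.76% to 16.4% in Lsd1 KO, against 18.7% to 22.3% in Control. Its share was lower in every Lsd1 KO library, but rests there on 5, 10 and 25 counts and on an uncertain split of reads. This difference in share was not tested.

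Arg2, the mitochondrial arginase that turns arginine into ornithine and urea, was the most abundant per length of the 6 genes with a known length, and all of its exon windows are unique in the genome. It lies on mm9 chromosome 12 from 80231764 to 80257288 on the plus strand. It had 1250, 975 and 1025 counts in Lsd1 KO and 2223, 1934 and 1596 counts in Control. The Lsd1 KO libraries lay close together at 93.4 ± 6.25 CPM and below all Control libraries, which were at 165 ± 35.0 CPM. The log2 fold change was -0.82 ± 0.19 (edgeR adjusted p = 0.00933), and the call held with each library left out in turn (adjusted p up to 0.0451). The last 285 bases of Arg2, from 80257004, overlap Vti1b on the opposite strand, and without knowledge of strand reads there cannot be told apart. Vti1b was at 41.9 ± 5.47 CPM in Lsd1 KO oocytes against 29.8 ± 6.94 CPM in Control and was not called. Of 10 tested genes within 0.25 Mb of Arg2, 3 were lower, Arg2 itself, Eif2s1 (log2 -0.96) and Plekhh1 (log2 -1.74), beside 10.3% of all genes tested. These neighbours were also examined after their values had been seen.

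Arginase supplies ornithine for polyamine synthesis, and of 28 arginine and polyamine genes in the files 18 were tested, 3 higher and 2 lower, beside 21.3% called of all genes. Sat1, which acetylates polyamines for breakdown and export, was at 37.8 ± 8.03 CPM in Lsd1 KO oocytes against 10.6 ± 1.8 CPM in Control (log2 1.83 ± 0.24, edgeR adjusted p = 0.000442). Odc1, which makes putrescine from ornithine, was at 701 ± 100 CPM in Lsd1 KO oocytes against 336 ± 63.9 CPM in Control (log2 1.06 ± 0.19, edgeR adjusted p = 0.00301). The polyamine oxidase Paox was higher (log2 0.71 ± 0.21), and the arginine transporter Slc7a2 was lower (log2 -0.98 ± 0.27). Spermidine synthase, Srm, was also lower (log2 -0.57 ± 0.18) and is named after its values were seen. Srm kept the call in 0 of the 6 fits that leave out a library (adjusted p up to 0.163), Paox in 2 (lost without Lsd1 KO replicates 2 or 3 or Control replicates 1 or 3) and Slc7a2 in 3 (lost without Lsd1 KO replicates 1 or 3 or Control replicate 3). The median log2 fold change of the list was 0.12.

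Tcstv1 and Tcstv3 form a pair of related genes, first described as variable 2-cell-stage transcripts and known for an effect on telomere length in embryonic stem cells. Tcstv1 had 681, 930 and 1027 counts in Lsd1 KO and 601, 878 and 168 counts in Control. For Tcstv3 the counts were 394, 464 and 591 in Lsd1 KO, against 382, 406 and 75 in Control. In both genes Control replicate 3 stood far below every other library, and the remaining Control libraries lay within or close to the Lsd1 KO range. The ratio of Tcstv1 to Tcstv3 counts was 1.73 to 2.0 in Lsd1 KO and 1.57 to 2.24 in Control, so that the pair moved together from library to library. Tcstv1 was at 76.9 ± 19.8 CPM in Lsd1 KO oocytes against 45.6 ± 26.9 CPM in Control (log2 0.75 ± 0.40, edgeR adjusted p = 0.201). Tcstv3 was at 42.2 ± 10.7 CPM in Lsd1 KO oocytes against 24.2 ± 15.3 CPM in Control (log2 0.80 ± 0.43, edgeR adjusted p = 0.210). Without Control replicate 3 these log2 values were 0.32 and 0.34 (adjusted p = 0.358 and 0.332).

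Zfp352, a zinc-finger gene abundant in 2-cell embryos, was near 0 in 5 libraries. It had 4, 0 and 58 counts in Lsd1 KO and 0, 3 and 4 counts in Control, so that the difference between the groups rested on Lsd1 KO replicate 3. A count of 0 allows up to 0.271 CPM in Lsd1 KO replicate 2 and 0.277 CPM in Control replicate 1, at 3 counts, for counting error only. It did not pass the filter on low counts and was not tested. Without a filter edgeR gave a log2 fold change of 3.13 (adjusted p = 0.0456), where 16.6% of 18946 genes were called. Without a filter and without Lsd1 KO replicate 3, a setting chosen after seeing the data, it was -0.25 (adjusted p = 0.949).

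Per kilobase of exon, levels can be set beside each other for 6 of the 8 genes. In Lsd1 KO, Arg2 stood at 65.4 ± 4.38 CPM per kb, followed by Zscan4d at 2.48 ± 1.65 and D5Ertd577e at 2.33 ± 1.12, which did not differ beyond their spread. Zfp352 (0.792 ± 1.25), Zscan4c (0.514 ± 0.414) and Zscan4f (0.461 ± 0.114) had the lowest means in Lsd1 KO and could not be ordered. The spread of Zfp352 also overlapped those of Zscan4d and D5Ertd577e, and the spread of Zscan4c overlapped that of Zscan4d. In Control, Arg2 was at 116 ± 24.5 CPM per kb, D5Ertd577e at 14.5 ± 3.30, Zscan4d at 5.61 ± 0.642, Zscan4c at 1.90 ± 0.220, Zscan4f at 0.876 ± 0.296 and Zfp352 at 0.0841 ± 0.0784. There each level exceeded the next by more than their spread. Levels per length of the genes with few unique windows carry the uncertainty in read assignment given above.

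**Figure D3:**
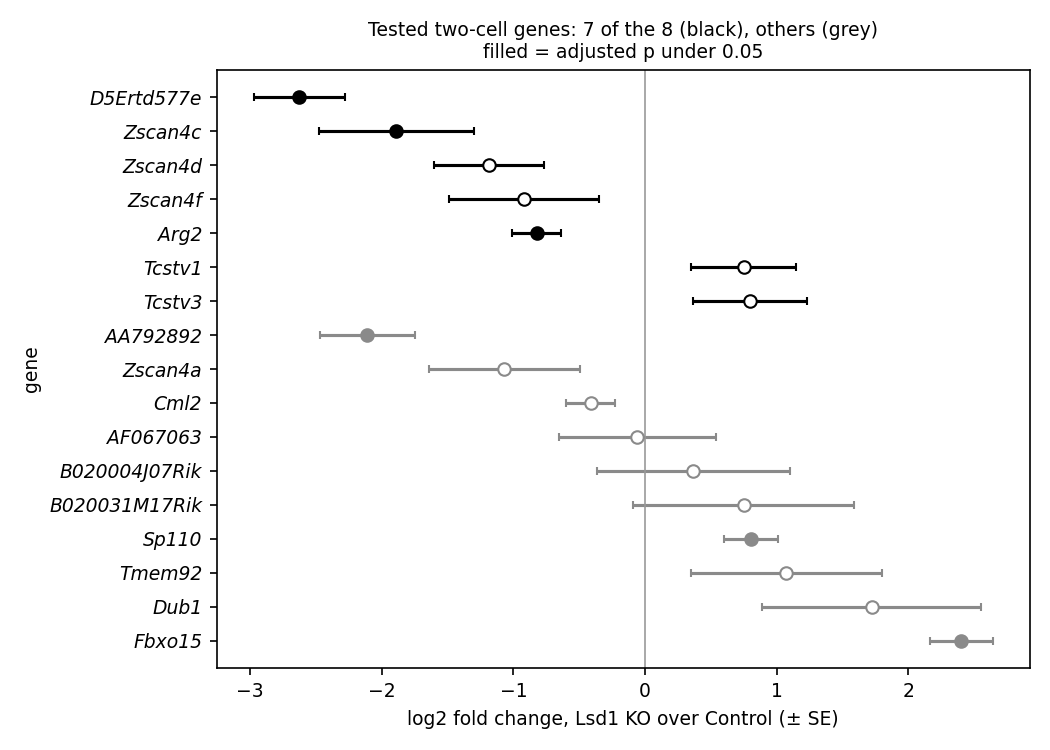
Log2 fold change (Lsd1 KO over Control, ± SE) of 7 of the 8 genes (black) and of 10 other genes typical of the 2-cell embryo (grey) that passed the filter on low counts; filled points had an adjusted p under 0.05. Fold changes ran from -2.63 for D5Ertd577e to 2.40 for Fbxo15.

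Other genes typical of the 2-cell embryo did not move one way. Of 36 such symbols in the files, 8 had no count and 10 were tested, of which 2 were higher and 1, AA792892, was lower, beside 21.3% called of all genes. Fbxo15, an F-box gene known from embryonic stem cells and early embryos, had 612, 414 and 470 counts in Lsd1 KO and 80, 88 and 114 counts in Control. Its log2 fold change was 2.40 ± 0.24 (edgeR adjusted p = 6.54e-05). Sp110, a nuclear body protein, was at 1955 ± 429 CPM in Lsd1 KO oocytes against 1119 ± 169 CPM in Control (log2 0.81 ± 0.21, edgeR adjusted p = 0.0158), and it missed the threshold when Lsd1 KO replicate 2 or Control replicate 1 was left out (adjusted p up to 0.0756). The median log2 fold change of the 10 was 0.56.

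One library held more of several low-count 2-cell transcripts than any other. Lsd1 KO replicate 3 was the highest of the 6 libraries for 8 of the 15 other 2-cell genes that reached 10 counts somewhere, for Zfp352, and for Tcstv1 and Tcstv3. It was the highest for 19.5% of all 14765 genes that reached 10 counts, and for 31.4% of the 1830 of these that did not pass the filter. Dub1, a deubiquitinase gene, had 10, 10 and 81 counts in Lsd1 KO, against 10, 16 and 6 counts in Control. B020004J07Rik had 33, 9 and 176 counts in Lsd1 KO and 44, 62 and 68 counts in Control. Gm8300, with 7, 5 and 43 counts in Lsd1 KO and 5, 1 and 10 in Control, had the same shape. The other genes highest in that library were Tdpoz1 (10, 5 and 9 counts in Lsd1 KO, level with replicate 1 once scaled), Gm5662, AF067063, Tmem92 and B020031M17Rik. These genes, named after their values were seen, were not called or did not pass the filter. Granulosa and cumulus markers without Cyp19a1 were also highest in Lsd1 KO replicate 3, at 157 CPM. With Cyp19a1 their sum was the lowest of the Lsd1 KO libraries there, at 396 CPM. Inha was at 51.6 CPM in that library, beside 21.7 and 12.5 CPM in Lsd1 KO replicates 1 and 2. The part of these markers in the 2-cell counts was not tested. Lsd1 KO replicate 3 held 180 CPM of immune and blood markers, between replicates 1 (278 CPM) and 2 (28.0 CPM), and its 36 counts of Kdm1a lay between theirs. Its counts of D5Ertd577e and Arg2 also lay between those of the other Lsd1 KO libraries.

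**Figure D4:**
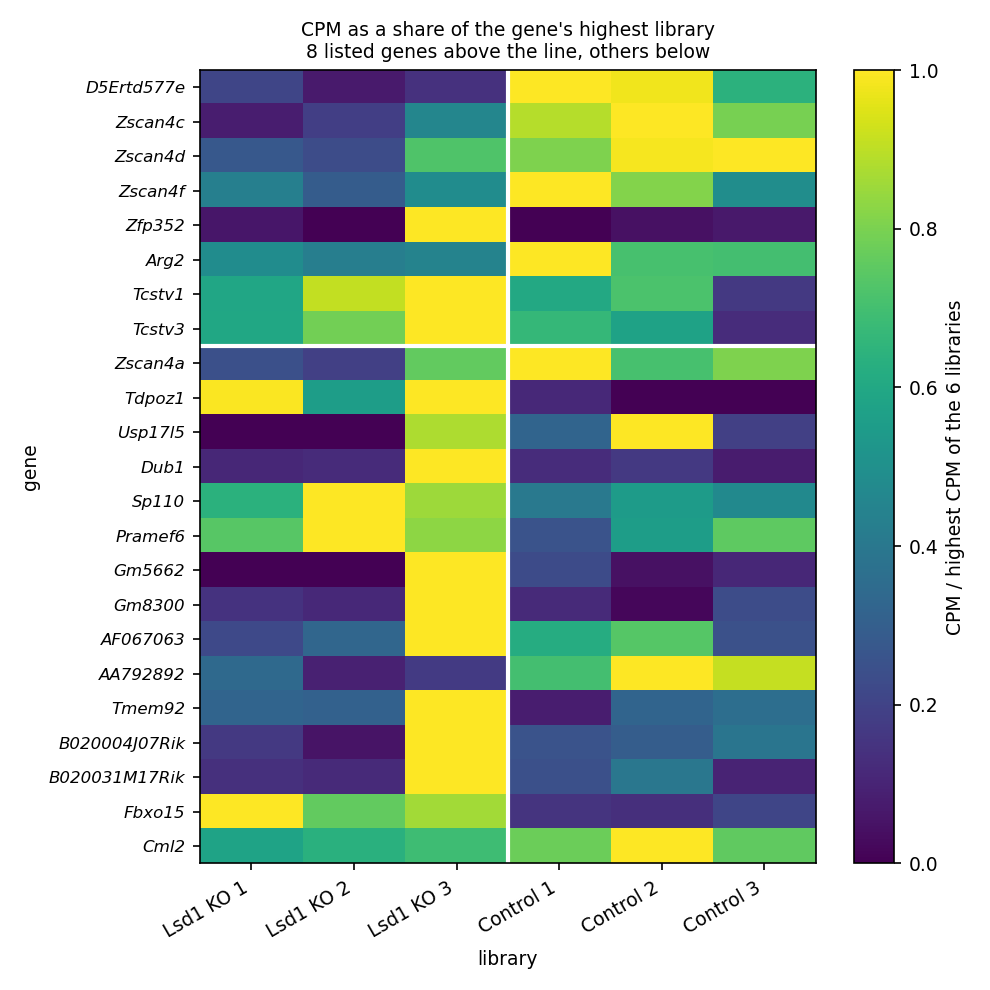
CPM of each gene as a share of its highest library (colour, 0 to 1) in the 3 Lsd1 KO and 3 Control libraries, for the 8 genes above the white line and for 15 other 2-cell genes that reached 10 counts in a library below it. Lsd1 KO replicate 3 is the brightest column for Zfp352, Tcstv1, Tcstv3 and 8 of the 15 others, and the Control libraries are brightest for D5Ertd577e, Arg2 and AA792892.

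Genes known to control the 2-cell state were also read. Dux, the homeobox activator of 2-cell genes, had 0 counts in each Lsd1 KO library and 4, 0 and 2 counts in Control, and was not tested. Dppa2 and Dppa4, known to activate Dux in mouse embryonic stem cells, were higher in Lsd1 KO. Dppa4 had 460, 424 and 441 counts in Lsd1 KO, against 43, 71 and 123 counts in Control (log2 2.49 ± 0.33, edgeR adjusted p = 0.000462). Dppa2 was at 136 ± 4.62 CPM in Lsd1 KO oocytes against 76.2 ± 9.74 CPM in Control (log2 0.83 ± 0.17, edgeR adjusted p = 0.0054). Of 29 tested regulators 3 were higher and 5 lower, beside 21.3% called of all genes, with a median log2 fold change of -0.23.

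Those lower included Zmym2, a zinc-finger partner of LSD1 known to restrain the 2-cell state in mouse embryonic stem cells, at 82.4 ± 9.54 CPM in Lsd1 KO oocytes against 158 ± 28.7 CPM in Control (log2 -0.94 ± 0.19, edgeR adjusted p = 0.00479). Morc3, an ATPase known for silencing of endogenous retroviruses, was at 28.6 ± 6.73 CPM in Lsd1 KO oocytes against 57.8 ± 8.34 CPM in Control (log2 -1.02 ± 0.21, edgeR adjusted p = 0.00634). The other calls, named after their values were seen, were Dppa3 (log2 0.65), Rybp (-0.56), Max (-0.70) and Pias4 (-0.64). Of the 6 fits that leave out a library, they passed in 2, 1, 1 and 0 (adjusted p up to 0.170, 0.190, 0.124 and 0.151), which were those without Lsd1 KO replicate 2 or Control replicate 1 for Dppa3, without Lsd1 KO replicate 2 for Rybp and without Control replicate 1 for Max. Dppa3, Rybp and Pias4 also lost the call with the replicate block and with the immune marker covariate. Among other SCAN-domain and related zinc-finger genes 21 were tested, 3 were lower (Zkscan1, Zscan29 and Zfp263, log2 -1.25, -0.95 and -1.53) and 0 were higher. This is beside 10.3% called lower of all genes tested. Zfp263 was not called without Control replicate 2 (log2 -0.98, adjusted p = 0.0734) or with the immune marker covariate (log2 -1.37, adjusted p = 0.0537). By an unadjusted p under 0.05 edgeR gave 2 higher and 5 lower in that list, and the share of all genes at that cutoff is not given here. After adjustment DESeq2 and limma-voom each called 0 higher and 4 lower in it.

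The genes closest in profile over the 6 libraries were found by the root mean square difference of mean-centred log2 CPM, a description that the genotype difference dominates. Nearest to D5Ertd577e were 2010005H15Rik (0.23), Shh (0.25), Zfp804b (0.28), F730016J06Rik (0.30) and Zfp661 (0.33). These were low-count genes, with means of 0.277 to 0.621 CPM in Lsd1 KO and 2.66 to 4.02 CPM in Control. Nearest to Arg2 were Rbm34 (0.07), Smc4 (0.09), Eif3m (0.10), Mgst3 (0.10) and Coq3 (0.10). Tcstv3 was the second nearest gene to Tcstv1 (0.18), after Gp6 (0.13), and Tcstv1 the nearest to Tcstv3. For Zscan4c the nearest were Tac1 (0.18), Slc5a10 (0.29), Tmem17 (0.30), Obox2 (0.32) and Ephb2 (0.33), and neither Zscan4d nor Zscan4f was among the 5. The 5 nearest to Zscan4d (Ubox5, Mterf, Kctd1, Zbtb40 and Mecom) lay at 0.21 to 0.22, and those to Zscan4f (Taf11, Fam103a1, Atp5f1, Pstk and Dynlt3) at 0.10 to 0.13.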

How the data were processed

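Counts per gene symbol, 1 column per sample, were deposited by the authors as raw read counts, and all values were whole numbers. Tools named by the submitters' processing notes are HTSeq 0.5.3p9, TopHat2 2.0.7 and CASAVA 1.8.2, with mm9 as the build. The sources used here do not give their roles and options, the annotation, the strand setting, the read length or the handling of multi-mapping reads. Per the labels' protocols, cDNA was amplified with the Ovation system and made into paired-end TruSeq libraries.

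From the counts, 12935 of 23284 genes were kept by filterByExpr (minimum count 10), scaled by TMM and tested with edgeR 4.0.16 in R 4.3.3 (quasi-likelihood F test, two-sided, genotype only, adjusted p over all genes tested, threshold 0.05). Standard errors were derived from the fold change and its F statistic. The common biological coefficient of variation was 27.2%. The scripts were tested on simulated counts with the means, sizes and spread of these libraries. There edgeR called 42% of 100 genes changed by a log2 value of 1 and 81.4% of 97 changed by 2. False calls numbered 11 among 12700 genes. A gene not called may thus still differ by a log2 value of about 1. Log2 CPM used a prior count of 2. Alternatives used DESeq2 1.42.0 and limma 3.58.1. Exon lengths, GC content and positions came from GENCODE M1 on NCBIM37 (21709 symbols), and sequences were aligned with Biopython 1.88.

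The 8 genes, the other gene lists and the tests were chosen with earlier results of these data known. Of 215 list entries 201 matched a symbol in the files, 4 of them by synonym. Named were the 8 genes, up to 4 called genes per list with the smallest adjusted p, and the 5 nearest profiles; others are marked in the text. The series text calls the replicates biological but does not say that they came from separate animals, so p-values measure the spread between these samples.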

Additional observations from a re-analysis of the deposited data

How the results depend on the processing

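Of the 8 genes, 7 were tested under up to 17 other settings: limma-voom, the DESeq2 Wald test, scaling by DESeq2 size factors or by library totals, no filter, at least 10 CPM in 3 libraries, a replicate block, an immune marker covariate, a length and GC correction without and with the block, each library left out, and, chosen after seeing the data, no filter without Lsd1 KO replicate 3. The 7 kept their direction in all of them, and D5Ertd577e and Arg2 their calls. The number of these genes called lower was 4 without Lsd1 KO replicate 3, 2 without any other library, and 4 without a filter, and the number higher was 1 without a filter (Zfp352). Without a filter and without Lsd1 KO replicate 3 the log2 value of Zfp352 turned to -0.25. That of Mrpl1, not called in any setting, was -0.173 to 0.0701 with a library left out. Over all genes the number higher was 932 to 1466 and the number lower 638 to 1346 with a library left out. Leaving out Control replicate 1 gave 932 higher; 638 were lower when Lsd1 KO replicate 1 was absent, 727 when Lsd1 KO replicate 3 was, and 781 when Control replicate 2 was. The cause was not tested. Only 6 of the 8 genes had a length, so that no count of them was made with the length and GC correction.

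Deviations from the group means of libraries with the same replicate number correlated at -0.029, 0.111 and -0.0211, so the numbers were not taken to pair the samples. With the replicate block 1270 genes were higher and 1098 lower, and of the 8 genes 4 were lower, Zscan4d among them (adjusted p = 0.0307); it also passed with no filter and with either length and GC correction. Other lost calls were Dppa3 and Paox with either length and GC correction, Pias4 with library totals, no filter and at least 10 CPM, Max with at least 10 CPM, Rybp and Pias4 with the correction and block together, and Srm with no filter, the block or the immune covariate. Among the marker genes, Inha, Cd68 and H2-Aa lost their calls with the length and GC correction without the block. Inha and Cd68 also lost theirs with limma-voom, Inha with the immune marker covariate and H2-Aa with the DESeq2 Wald test. Counts of 5 to 65 per library limit what can be said of Zscan4c, and 9 to 30 of Zscan4f.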
